A study of Mus musculus with 6 samples.

Results

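The cells described here were basal keratinocytes of mouse dorsal skin, compared between 2 d and 16 h after depilation. They were chosen by their measured RNA and not by a sort. A barcode was counted as a basal keratinocyte if it had 500 to 7000 detected genes, at most 10% of its unique molecular identifiers (UMIs, 1 for each captured RNA molecule) from mitochondrial mt- genes, at least 100 UMIs of Krt5 and Krt14 together per 10000, and fewer than 100 UMIs of Krt1 and Krt10 together per 10000. Krt5 and Krt14 encode the keratin pair of the basal layer, and Krt1 and Krt10 encode the pair that replaces it when a cell leaves that layer. The rule chose 5865 barcodes at 16 h and 5012 at 2 d, which is 10877 of the 21125 barcodes deposited for both libraries, out of 61031 in the series. Because these 4 keratins, the mt- genes and the number of detected genes chose the cells, they are not reported as findings.

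The series followed the regrowth of hair after its removal by wax, in a study of the survival protein MCL-1 in hair follicle cells. Dissociated dorsal skin was profiled with the 10x Genomics Chromium 3' kit at 6 times after depilation, which were 0 h and 4 h, then 16 h and 2 d, and then 4 d and 6 d. All donors were wildtype FVB males aged p55-57 whose back skin had been shaved and waxed, and no other genotype or drug treatment was present in any library. Each library pooled equal cell numbers from 2 mice that had been dissociated apart, and the barcodes do not carry the identity of the mouse.

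There was therefore 1 library per time point and no replicate of any value below. No test of the time point could be made, and no p-value is given. Intervals are exact 95% intervals of the counting error alone, and they cover neither the difference between mice nor that between library preparations. A gene is said to have risen or fallen if its ratio between the libraries was at least 1.5-fold, which describes these 2 libraries and is not a test of the condition. In summed counts, a lower level can come from fewer cells that hold a transcript or from less of it in each cell, and these cannot be told apart.

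The basal layer of the epidermis and the outer layer of the hair follicle are sheets of keratinocytes that rest on a basement membrane through integrins and hemidesmosomes. Their cells divide, and some of the daughters lose contact with the membrane and differentiate. After an injury keratinocytes switch on a wound programme of stress keratins, epidermal growth factor family ligands, chemokines and antimicrobial peptides, and pulling hair shafts out of their follicles wakes the follicle stem cells of the bulge and hair germ.

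The selected cells carried 70058178 UMIs at 16 h and 45420463 at 2 d, with medians of 10898 and 7841.5 UMIs per cell. They made up 67.2% of the barcodes that passed the gene and mitochondrial limits at 16 h and 52.6% at 2 d. The median share of mt- UMIs was 3.39% at 16 h and 4.46% at 2 d. Within 10% of the Krt5 and Krt14 limit there were 102 barcodes just inside and 87 just outside at 16 h, and 159 and 174 at 2 d. The libraries shared 28 barcode sequences, of which 6 were among the selected cells of both. All 12 listed markers of basal keratinocytes were above 10 CPM (the UMIs of a gene per 1000000 UMIs of all selected cells of a library) at both times. Among them were the transcription factor Trp63 with 326 at 16 h and 311 at 2 d, and the integrin Itga6 with 513 and 502. The cells were chosen by basal keratins, and the T cell gene Cd3e passed 10 CPM too, with 19.3 at 2 d. Passing this floor is therefore not a test of the label.

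Levels are given as CPM throughout. Of the 7381 genes with a mean of at least 10 CPM over both libraries, 259 were at least 1.5-fold higher at 2 d (3.51%) and 1088 were at least 1.5-fold lower (14.7%). At 2-fold, 74 genes were higher (1% of those compared) and 149 were lower (2.02%). The split between higher and lower depended on the scaling. The median gene had a log2 ratio of -0.20 on the library total, so that lower genes were favoured, and the trimmed mean of M-values (TMM), which centres the bulk of genes, moved all ratios up by 0.17 on the log2 scale. With TMM 472 genes were higher and 439 lower, and 51.8% of the called genes were higher, against 19.2% on the library total. With median of ratios size factors the counts were 517 and 384, or 57.4% higher. When the total was taken without ribosomal protein and mt- genes, a choice made after the data were seen, they were 439 and 724, or 37.8% higher. Below, the median of a gene list is therefore given also as its difference from the median of all genes, and directions are named where TMM turned them. Counts of risen and fallen members of a list on the library total are to be read against the 3.51% and 14.7% of all genes. Counts with TMM are to be read against the 472 higher and 439 lower of 7371 genes under that scaling.

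**Figure D1:**
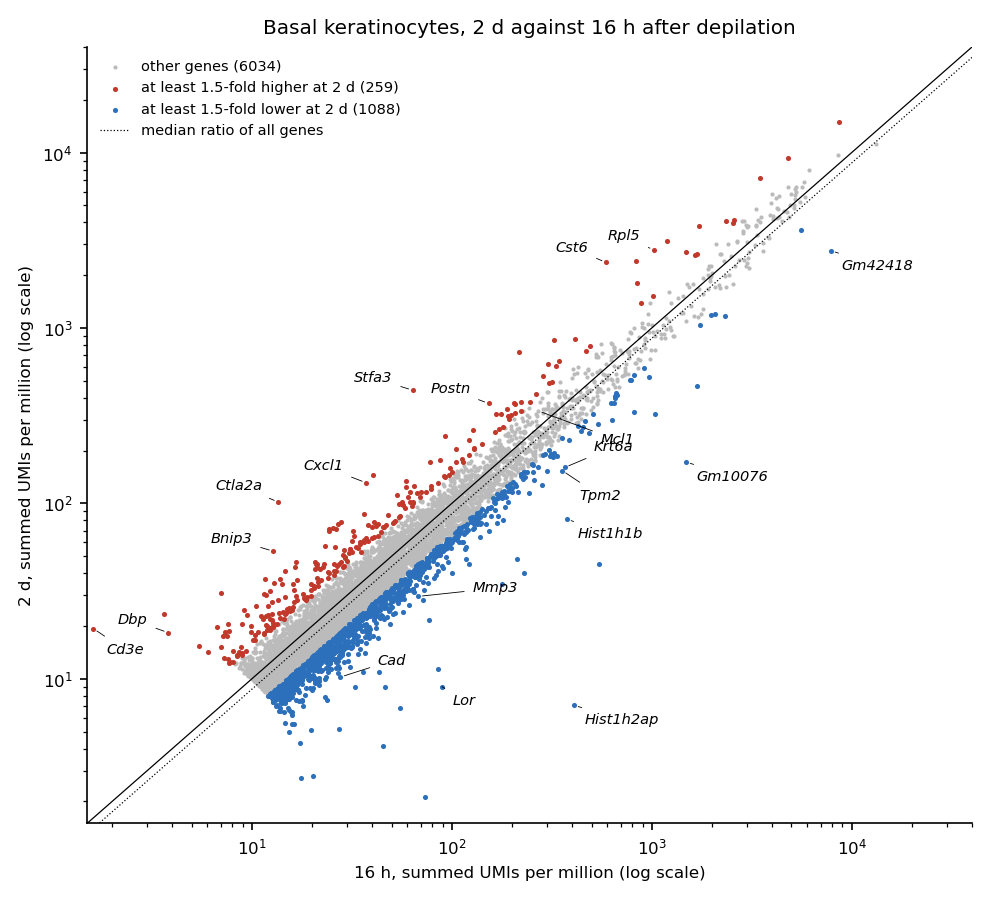
Summed UMIs in CPM at 16 h (x axis, log scale) and 2 d (y axis, log scale) in basal keratinocytes for 7381 genes, 1 point per gene, with 259 genes at least 1.5-fold higher at 2 d in red and 1088 at least 1.5-fold lower in blue. The dotted line is the median ratio of all genes, which lies under the solid line of equal levels, and Hist1h2ap stands farthest below both.

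Genes of DNA replication were lower at 2 d than at 16 h. Of 37 measured genes of the DNA replication and S phase list, 26 fell (70.3%, against 14.7% of all genes) and 0 rose, with a median log2 ratio of -0.76, which is -0.56 relative to all genes. With TMM 18 fell and 0 rose. Mcm2, a subunit of the helicase that unwinds DNA at origins, measured 48.9 CPM at 16 h and 20.6 CPM at 2 d, a ratio of 0.420 (0.391 to 0.452). Mcm5, another subunit of that helicase, went from 56.9 to 24.2 CPM. Chaf1b, a chain of the chromatin assembly factor that loads histones on new DNA, went from 30.3 to 12.6 CPM, and Fen1, the nuclease that trims Okazaki fragments, from 34.9 to 14.8 CPM. At 16 h Mcm2 stood above every other library, where it measured 9.08 CPM at 0 h, 14 at 4 h, 22.7 at 4 d and 13.9 at 6 d.

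Transcripts of replication dependent histones, which package newly made DNA, fell further. Of 9 measured genes 8 fell under both scalings, and their summed level went from 1307 to 265 CPM. Hist1h2ap, an H2A gene, had the lowest ratio of all named genes, with 409.6 CPM at 16 h and 7.07 CPM at 2 d, a ratio of 0.0173 (0.0154 to 0.0193). Hist1h1b, a linker histone gene, went from 378 to 81.2 CPM, a ratio of 0.215 (0.208 to 0.223), Hist1h2ae from 178 to 34.6 CPM and Hist1h2ak from 84.9 to 11.5 CPM. Histone genes of a cluster are close copies of each other and most of their transcripts lack a poly(A) tail, so the value of a single one is uncertain. Hist1h2ap also moved between the other libraries, with 145 CPM at 0 h, 48.3 at 4 h, 57.9 at 4 d and 341 at 6 d.

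The mitotic genes moved less than those of replication. Of 35 genes of the G2/M and mitosis list 14 fell and 0 rose, with a median log2 ratio of -0.44, or -0.24 relative to all genes, and with TMM 6 fell. Cdk1, the kinase that drives entry into mitosis, measured 116 CPM at 16 h and 54.9 at 2 d, a ratio of 0.472 (0.452 to 0.494). Aurkb, the kinase of the chromosomal passenger complex, went from 38.2 to 19.8 CPM, and Plk1, a mitotic kinase, from 21.7 to 11.4 CPM. Ndc80, a kinetochore protein, went from 20.7 to 9.71 CPM. In cells with a UMI of Cd34, Krt24 or Lgr5, markers of bulge and hair germ cells, these genes did not pass the limit. Their log2 ratios there were -0.12 for Cdk1, 0.37 for Aurkb, -0.028 for Plk1 and -0.002 for Ndc80. In Ly6a cells without those markers they were -1.05, -0.94, -0.90 and -1.09 in the same order. These subsets were chosen after the data were seen, and the difference between them was not tested. The first subset held 542 cells at 16 h and 268 at 2 d. Cd34 was at background at 2 d, as described below, so it may not hold the same cells at both times. Among regulators of the entry into S phase, 7 of which were measured, Ccnd2, a D cyclin, rose from 193 to 302 CPM, while Cdkn2c, an inhibitor of its kinase, fell from 28.6 to 17.1 CPM, a call that TMM did not keep.

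The share of cells with mitotic transcripts differed little. Each cell was thinned to 2000 UMIs, which left out 34 shallower cells at 16 h and 30 at 2 d, and a cell was called cycling if it then held at least 2 UMIs of 10 mitotic markers. By this measure 32.1% (30.9 to 33.3) of cells were cycling at 16 h and 30.5% (29.2 to 31.8) at 2 d. Unthinned, the values were 74.7% and 66.5%. The call thus depended on depth. T cell barcodes of the same libraries, which held at least 3 UMIs of T cell receptor complex genes and lay under the Krt5 and Krt14 limit, gave 23.9% and 37.9% after thinning (68 and 396 shallower ones left out). Dividing T cells and free RNA cannot be told apart in these shares, and the part of free RNA in the basal shares was not tested. Within the 1870 and 1520 cycling cells, 26 of the S phase genes fell and 0 rose, with a median log2 ratio of -0.73, and Hist1h2ap went from 1015 to 18.5 CPM. In cells with no UMI of a cycling marker after thinning, 18 fell and 1 rose. Of the G2/M list 8 fell and 0 rose in cycling cells, which were chosen by mitotic markers. In the cells chosen for having no mitotic marker UMI 8 fell and 10 rose. Among all genes compared, 1069 of 7451 fell and 291 rose in cycling cells. In the cells without a cycling marker 1063 of 7211 fell and 257 rose.

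Genes that feed growth fell beside those of replication. Of 36 measured genes of ribosome biogenesis 16 fell and 0 rose, with a median log2 ratio of -0.50, or -0.31 relative to all genes, and 5 fell with TMM. Heatr1, a factor of ribosomal RNA transcription and processing, measured 20.7 CPM at 16 h and 9.53 at 2 d. Rrp9, a protein of the small nucleolar particle that guides rRNA processing, went from 26.8 to 12.6 CPM, and Nop2, an rRNA methyltransferase, from 24.7 to 12.4 CPM. In T cell barcodes Rrp9 went from 41.9 to 18.4 CPM and Nop2, with 11 and 16 UMIs, from 15.9 to 5.87 CPM, so that both fell there too. Heatr1 had 12.99 and 10.6 CPM there, from fewer than 10 UMIs at 16 h, so its difference from Rrp9 and Nop2 is uncertain. All 3 had been highest at 4 h, with 74.7 CPM for Heatr1, 109 for Rrp9 and 84.2 for Nop2.

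In the list of polyamine and nucleotide synthesis 5 of 16 measured genes fell and 0 rose, with a median log2 ratio of -0.49. With TMM 4 fell and 2 rose. Cad, the enzyme of the first steps of pyrimidine synthesis, measured 27.7 CPM at 16 h and 10.2 at 2 d, a ratio of 0.369 (0.333 to 0.409). Gart, an enzyme of purine synthesis, went from 50.7 to 23.4 CPM. Asns, the asparagine synthetase in the list of 17 measured Atf4, serine and one-carbon genes, went from 48.5 to 24.5 CPM. In that list 4 genes fell (23.5%, against 14.7% of all genes), 3 with TMM. Nupr1, a stress induced chromatin protein, rose from 9.09 to 24.6 CPM, and from 17.3 to 56.5 CPM in T cell barcodes.

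Sterol synthesis genes fell in 10 of 21 measured cases, with a median log2 ratio of -0.53, or -0.33 relative to all genes, and 5 fell with TMM. Mvk, mevalonate kinase, measured 40.2 CPM at 16 h and 17.6 at 2 d, a ratio of 0.436 (0.403 to 0.472). Fdps, farnesyl diphosphate synthase, went from 149 to 76.6 CPM, Idi1 from 84.5 to 45.1 CPM and Sqle, squalene epoxidase, from 34.4 to 19.4 CPM. Among 11 measured genes of fatty acid synthesis 2 fell, Fasn, the fatty acid synthase, from 51.8 to 23.9 CPM and Srebf1, a transcription factor of lipid synthesis, from 30.8 to 18.7 CPM. T cell barcodes showed similar ratios for part of these genes. There Fdps went from 251 to 126.6 CPM, Fasn from 104 to 46.98 CPM and Srebf1 from 41.9 to 25.3 CPM, whereas Mvk had 37.5 and 37.4 CPM.

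Proteasome subunits fell in 8 of 33 cases (24.2%, against 14.7% of all genes), and in 1 with TMM. Psmc2, an ATPase of the regulatory cap, went from 114 to 59.95 CPM, and from 107 to 51.4 CPM in T cell barcodes. Among 21 measured heat shock chaperones 4 fell (19.05%, against 14.7% of all genes) and 0 rose, a share not far from that of all genes. With TMM 2 fell and 1 rose. Hspd1, the mitochondrial chaperonin, measured 319.9 CPM at 16 h and 183 at 2 d, a ratio of 0.572 (0.558 to 0.587), after 628 CPM at 4 h and 124 at 0 h. Of 20 genes of endoplasmic reticulum folding 4 fell (20%) and 1 rose (5%), shares not far from those of all genes. Hyou1, a chaperone of that compartment, went from 19.6 to 8.85 CPM. Among 15 genes of MHC class I presentation 3 fell (20%) on the library total, again a share not far from that of all genes. With TMM 2 fell. Tap1, the peptide transporter, had 98.7 and 55.9 CPM, and Psmb8, an immunoproteasome subunit, had 233 and 142 CPM, with 190.5 and 97.3 CPM in T cell barcodes. The 74 nuclear genes of oxidative phosphorylation moved with the bulk of genes, since 5 fell, 0 rose and their median was -0.02 relative to all genes.

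**Figure D2:**
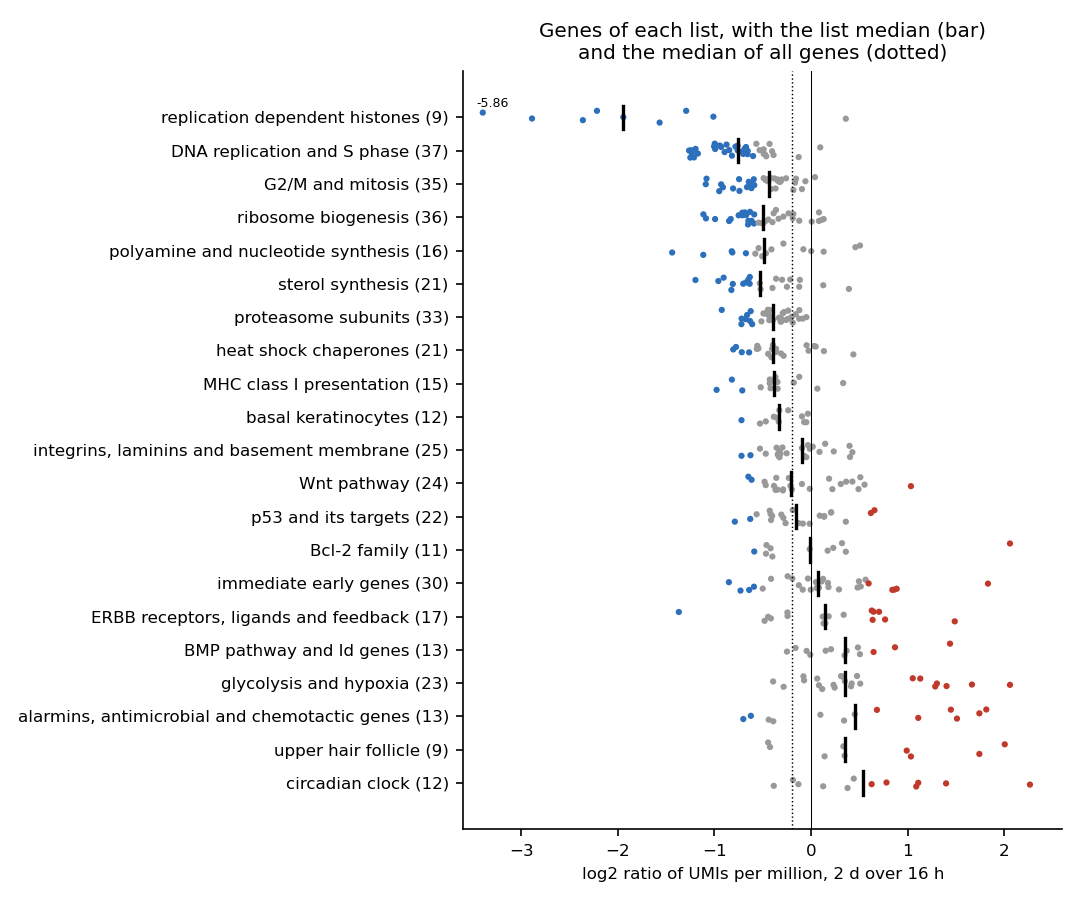
Log2 ratio of CPM, 2 d over 16 h (x axis), for the measured genes of 21 lists, 1 point per gene, blue if at least 1.5-fold lower, red if at least 1.5-fold higher, with the list median as a bar and the median of all genes as a dotted line. Most histone and S phase genes lie left of the dotted line, and most genes of the clock, hypoxia and chemotactic lists lie right of it. Hist1h2ap is drawn at the edge with its value of -5.86 written beside it.

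The wound keratins did not move together, and of 4 genes 2 fell, while with TMM 2 fell and 1 rose. Krt6a, a keratin switched on in injured epidermis, measured 368 CPM at 16 h and 161 at 2 d, a ratio of 0.436 (0.425 to 0.448), after 19.2 CPM at 0 h and 1260 CPM at 4 h. The share of cells with a Krt6a UMI after thinning went from 23.8% (22.7 to 24.9) to 13.1% (12.2 to 14.1), against 3.80% and 1.24% of T cell barcodes, which should lack it. Unthinned, 45.1% of basal cells had a Krt6a UMI at 16 h and 26.9% at 2 d. Its partner Krt16 measured 568 and 544 CPM, which did not pass the 1.5-fold limit, and Krt17, a keratin of the follicle and of wounds, 526 and 708 CPM, a ratio of 1.35 (1.33 to 1.37). Krt6b, close in sequence to Krt6a, went from 17.8 to 9.38 CPM, but its direction turned in cells chosen with stricter keratin limits. The simple epithelial keratin Krt8, which had 11.1 CPM at 16 h, had 0.220 CPM at 2 d, and its share of thinned cells went from 1.34% (1.06 to 1.67) to 0.0803% (0.0219 to 0.205). Krt8 was under the limit of 10 CPM for the comparison across genes.

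Of 38 measured genes of the actin cytoskeleton 9 fell (23.7%, against 14.7% of all genes), 6 with TMM, and 1 rose (2.63%). Tpm2, a tropomyosin that binds along actin filaments, measured 357 CPM at 16 h and 154 at 2 d, a ratio of 0.431 (0.420 to 0.442), and had 55.1 CPM at 0 h. Tmsb10, which binds actin monomers, went from 300 to 153 CPM. The gene that rose was Vim, the intermediate filament gene of mesenchymal and immune cells, with 22.9 and 45.4 CPM, against 5591 and 3262 CPM in T cell barcodes. Mmp3, stromelysin, which cleaves matrix proteins, measured 68.0 CPM at 16 h and 29.5 at 2 d, a ratio of 0.434 (0.408 to 0.461), after 238 CPM at 4 h and 18.6 CPM at 0 h.

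Few transcripts of basement membrane adhesion passed the limit. Among 25 measured integrins, laminins and other membrane genes 2 fell (8%, against 14.7% of all genes) and 0 rose, and with TMM 0 fell and 1 rose. Itgb4, the integrin of hemidesmosomes, went from 228 to 139 CPM, a ratio of 0.607, and Col17a1, a collagen of the same structure, from 1297 to 899.5 CPM, a ratio of 0.693 that did not pass the limit. Of the 12 basal keratinocyte markers Itgb4 alone passed it, and it did not with TMM. Krt15, a keratin of basal and bulge cells, had 2946 CPM at 16 h and 2256 at 2 d, and was found after thinning in 81.7% and 84.4% of cells.

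Some transcripts of the cornified layer fell sharply. Cells with much Krt1 and Krt10 were left out by the rule, so a low level of differentiation transcripts is not a finding. Lor, loricrin, the main protein of the cornified envelope, measured 89.4 CPM at 16 h and 9.03 at 2 d, a ratio of 0.101 (0.0911 to 0.112), while it went from 59.2 to 27.9 CPM in T cell barcodes, which do not make it. Lce1m, a late cornified envelope gene, went from 73.8 to 2.11 CPM, and Calm5, a calmodulin-like skin gene, from 55.2 to 6.80 CPM, with 56.3 and 9.18 CPM in T cell barcodes. T cell barcodes thus held Lor and Calm5 too, and both were lower there at 2 d. The part of free RNA in these values was not tested. In the epidermal differentiation list 2 of 17 measured genes fell and 5 rose. Spink5, an inhibitor of skin proteases, went from 16.5 to 43.5 CPM, and Calml3, a calmodulin of epithelia, from 16.8 to 36.4 CPM. Both also rose in T cell barcodes, Spink5 from 47.6 to 127 CPM and Calml3 from 25.98 to 49.2 CPM. Of 6 measured spinous and granular markers Lor was the one that passed the limit, and Krtdap, a spinous layer protein, had 770.2 CPM at 16 h and 673 at 2 d.

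Genes of the hypoxia response were higher at 2 d. Hypoxia-inducible factors bind the core letters ACGTG in the promoters and enhancers of their targets, which include genes of glycolysis, lactate export, mitophagy and vessel growth. Of 23 measured genes of the glycolysis and hypoxia list 7 rose (30.4%, against 3.51% of all genes) and 0 fell, with a median log2 ratio of 0.35, or 0.55 relative to all genes. With TMM 11 rose and 0 fell. Bnip3, a mitochondrial protein of the Bcl-2 family that marks mitochondria for removal, measured 12.8 CPM at 16 h and 53.4 at 2 d, a ratio of 4.17 (3.86 to 4.51). Its level in T cell barcodes was 33.2 and 33.4 CPM. Over the other libraries Bnip3 had 39.4 CPM at 0 h, 6.73 at 4 h, 38.4 at 4 d and 33.1 at 6 d, so that 4 h and 16 h were the low libraries.

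The promoters of these genes are shown because members of the list moved together. In the RefSeq promoter table for GRCm38.p6, the build of the deposited files, 22 of the 23 genes had an entry, and the 250 bases before the start site are used. Capitals mark ACGTG on either strand, and in Bnip3 the matches on both strands overlap and spell the E-box CACGTG. Bnip3 lies on the minus strand at chr7:138909507-138909756, Egln3 on the minus strand at chr12:54203875-54204124, and Slc16a3 on the plus strand at chr11:120948817-120949066.
Bnip3: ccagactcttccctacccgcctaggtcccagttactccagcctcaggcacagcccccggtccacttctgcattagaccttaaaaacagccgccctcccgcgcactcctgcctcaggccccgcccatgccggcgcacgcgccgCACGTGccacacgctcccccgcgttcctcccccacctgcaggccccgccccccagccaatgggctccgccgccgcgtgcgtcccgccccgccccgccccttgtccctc
Egln3: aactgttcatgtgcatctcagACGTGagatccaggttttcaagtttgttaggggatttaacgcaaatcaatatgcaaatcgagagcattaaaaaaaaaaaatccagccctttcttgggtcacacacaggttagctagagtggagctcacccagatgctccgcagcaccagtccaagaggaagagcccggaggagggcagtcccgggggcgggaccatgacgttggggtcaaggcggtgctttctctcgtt
Slc16a3: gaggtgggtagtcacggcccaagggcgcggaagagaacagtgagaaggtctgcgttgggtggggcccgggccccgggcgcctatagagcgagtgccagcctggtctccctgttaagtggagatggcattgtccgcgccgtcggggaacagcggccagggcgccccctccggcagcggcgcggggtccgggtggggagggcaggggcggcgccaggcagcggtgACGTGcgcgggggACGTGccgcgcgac

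Counting both strands, ACGTG stood in 1593 of 5936 promoters of measured genes (26.8%), in 69 of 190 of those that rose (36.3%) and in 221 of 868 of those that fell (25.5%). A gene was counted if any of its entries held a match. By this count it stood in 14 of 22 genes of the list (63.6%), and in all 6 of the risen genes with an entry. These were Bnip3, Egln3, Slc16a3, Ddit4, Hk2 and, in 1 of its 2 entries, Vegfa. For Vegfa, on the minus strand, the match lay in the downstream entry at chr17:46025164-46025413, inside the gene. The upstream entry at chr17:46032378-46032627 held 0 matches. A match of 5 letters is a description of the sequence and does not show that a factor binds there.

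Egln3, the oxygen-sensing hydroxylase that is itself a target of the factors it marks for destruction, measured 11.6 CPM at 16 h and 36.9 at 2 d, a ratio of 3.18 (2.92 to 3.46). Vegfa, the growth factor of blood vessels, went from 11.5 to 30.3 CPM, a ratio of 2.65 (2.42 to 2.89). Slc16a3, the lactate exporter, went from 10.5 to 25.9 CPM, a ratio of 2.47 (2.25 to 2.71). Ddit4, an inhibitor of mTORC1, went from 7.21 to 17.6 CPM, Hk2, a hexokinase, from 13.5 to 28.1 CPM, and Ndrg1, a stress induced gene of differentiating epithelium, from 78.1 to 171 CPM. T cell barcodes differed between these genes. Egln3 had 15.9 and 18.7 CPM there and Ndrg1 92.4 and 120 CPM, whereas Hk2 went from 179 to 335.5 CPM. From fewer than 10 UMIs at 16 h, Vegfa went from 11.6 to 30.5 CPM there, Ddit4 from 2.89 to 8.44 CPM and Slc16a3 from 2.89 to 5.14 CPM. Vegfa and Hk2 were thus higher at 2 d in both cell types. The same list gave 8 risen genes in cells without a cycling marker and 8 in cycling cells, with 0 fallen in both. Among all genes compared, 257 of 7211 rose in the former cells and 291 of 7451 in the latter.

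Among the rest of the Bcl-2 family changes were small. Mcl1, the survival gene at the centre of the study, measured 270.0 CPM at 16 h and 337 at 2 d, a ratio of 1.25 (1.22 to 1.28), under the limit. Its other levels were 488 CPM at 0 h, 329 at 4 h, 280 at 4 d and 238 at 6 d. Of 11 measured genes of the family Bnip3 rose and Bok, a pro-apoptotic effector, fell from 169 to 113 CPM, a ratio of 0.665 (0.644 to 0.688) that did not pass with TMM. The effectors Bax, with 95.7 and 71.6 CPM, and Bak1, with 17.2 and 12.4 CPM, did not pass the limit. Nor did the BH3-only genes Bbc3, with 9.21 and 11.8 CPM, and Pmaip1, with 30.2 and 29.9 CPM, or Bnip3l, the relative of Bnip3, with 119 and 140 CPM. Trp53, which encodes p53, had 93.2 and 87.9 CPM. Of 22 measured genes of p53 and its targets 2 rose (9.09%) and 2 fell (9.09%), and with TMM 2 rose and 1 fell. The 2 that rose were Gadd45a, a stress induced gene, from 12.7 to 20.01 CPM, and Trp53inp1, a p53 induced nuclear protein, from 28.8 to 44.3 CPM. The 2 that fell were Aen, an exonuclease, from 32.5 to 18.8 CPM, and Phlda3, an inhibitor of Akt, from 179 to 115.5 CPM.

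Clock genes formed the list with the highest median among the pathways. In the circadian clock the activators Clock and Arntl drive repressors of the Per, Cry and Nr1d families through E-boxes. Of 12 measured genes 6 rose and 0 fell, 7 and 0 with TMM, and the median log2 ratio was 0.54, or 0.73 relative to all genes. Dbp, a clock output factor, measured 3.81 CPM at 16 h and 18.4 at 2 d, a ratio of 4.82 (4.19 to 5.55). Nr1d1, a repressor of Arntl, went from 20.9 to 45.2 CPM, a ratio of 2.16 (2.02 to 2.31), and its relative Nr1d2 from 21.3 to 45.2 CPM. Bhlhe40, a repressor that is also a hypoxia target, went from 92.0 to 243 CPM, a ratio of 2.64 (2.56 to 2.72). Tef, a relative of Dbp, went from 7.58 to 13.03 CPM, and Rora, an activator of Arntl, from 165 to 255 CPM. In T cell barcodes Bhlhe40 rose as well, from 30.3 to 85.2 CPM, a ratio of 2.81 (1.80 to 4.63). Nr1d1 went from 8.66 to 22.4 CPM there, from fewer than 10 UMIs at 16 h, Rora from 90.9 to 157.5 CPM and Tef from 15.9 to 27.2 CPM. Dbp had 15.9 and 21.7 CPM and Nr1d2 38.97 and 45.2 CPM in those barcodes, so that the rise was shared by part of the clock genes.

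Arntl itself measured 31.2 and 28.5 CPM, Clock 48.6 and 42.7 CPM and Per1 24.8 and 19.0 CPM, and none of the 3 passed the limit. The labels give the time after depilation but not the hour of the day at which skin was taken, and the interval between these libraries is not a whole number of days, so time after depilation and hour of day cannot be told apart. Dbp had 4.995 CPM at 0 h, 19.1 at 4 h, 10.3 at 4 d and 11.8 at 6 d, and Nr1d1 had 47.5, 33.6, 21.6 and 69.1 CPM at those times. The E-box CACGTG stood in 2 of the 11 clock promoters with an entry, those of Per1 and Tef, and in 1 of the 5 risen ones, against 622 of 5936 promoters (10.5%). The shorter ACGTG, which overlaps it, stood in 5 of the 11, against 26.8% of all. Dbp is shown as the clock gene with the highest ratio, on the plus strand at chr7:45704997-45705246, with its single ACGTG in capitals, which is not part of a CACGTG.
Dbp: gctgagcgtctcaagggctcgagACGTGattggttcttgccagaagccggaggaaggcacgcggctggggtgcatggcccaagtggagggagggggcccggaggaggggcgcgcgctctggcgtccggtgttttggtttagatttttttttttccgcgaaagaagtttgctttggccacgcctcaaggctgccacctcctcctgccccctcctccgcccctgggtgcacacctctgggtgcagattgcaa

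Chemokines and antimicrobial genes rose in part. Of 13 measured genes of the alarmin, antimicrobial and chemotactic list 6 rose and 2 fell, and with TMM 7 rose and 0 fell. In cells without a cycling marker 5 rose and 5 fell, against 257 risen and 1063 fallen of 7211 genes compared there. Cxcl1, which attracts neutrophils, measured 37.3 CPM at 16 h and 131 at 2 d, a ratio of 3.52 (3.36 to 3.69). It was found after thinning in 4.00% (3.51 to 4.53) of cells at 16 h and 11.4% (10.6 to 12.3) at 2 d, against 0.544% and 1.66% of T cell barcodes. Without thinning 11.4% and 22.8% of cells had a Cxcl1 UMI. Over the series Cxcl1 was highest at 0 h with 151 CPM and lowest at 4 d with 7.24 CPM.

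Ccl20, which attracts cells with the receptor CCR6, among them Langerhans cell precursors and T cells, went from 26.9 to 76.6 CPM, a ratio of 2.85 (2.70 to 3.02), and was higher at 2 d than in any other library, since those other than 16 h lay between 3.96 and 19.9 CPM. In T cell barcodes Ccl20 went from 1.44 to 20.2 CPM and Cxcl1 from 1.44 to 10.6 CPM, from fewer than 10 UMIs at 16 h. Both genes are known targets of NF-kappaB, and their promoters are shown with matches to its consensus in capitals, which overlap in Cxcl1. Cxcl1 lies on the plus strand at chr5:90890995-90891244 and Ccl20 on the plus strand at chr1:83116516-83116765.
Cxcl1: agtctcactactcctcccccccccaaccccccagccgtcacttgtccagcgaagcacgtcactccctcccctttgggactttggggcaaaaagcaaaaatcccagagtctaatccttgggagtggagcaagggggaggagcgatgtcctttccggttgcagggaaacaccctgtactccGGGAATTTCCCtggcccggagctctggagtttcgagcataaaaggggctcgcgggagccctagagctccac
Ccl20: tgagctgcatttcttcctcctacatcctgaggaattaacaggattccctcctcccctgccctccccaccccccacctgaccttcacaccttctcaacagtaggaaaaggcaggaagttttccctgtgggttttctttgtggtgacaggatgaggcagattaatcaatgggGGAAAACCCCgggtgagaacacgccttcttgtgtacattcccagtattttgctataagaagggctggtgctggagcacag

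The NF-kappaB consensus stood, on either strand, in 636 of 5936 promoters (10.7%), in 35 of 190 promoters of risen genes (18.4%) and in 92 of 868 of fallen genes (10.6%). In the chemotactic list it stood in 3 of 11 promoters, those of Cxcl1, Ccl20 and Defb6, all of which rose. Defb6, a beta-defensin, measured 217 CPM at 16 h and 728 at 2 d, and 113 and 654 CPM in T cell barcodes. Tslp, an epithelial cytokine, went from 6.99 to 15.1 CPM. S100a9, a chain of calprotectin, went from 7.57 to 20.7 CPM and its partner S100a8 from 7.68 to 12.3 CPM, but both were lower at 2 d in cells without a cycling marker, S100a8 at 10.4 and 3.71 CPM and S100a9 at 12.3 and 6.72 CPM. Il33, an alarmin of the IL-1 family, fell from 127 to 82.6 CPM, and Il18 fell from 16.0 to 9.84 CPM, neither of which passed with TMM.

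The immediate early genes, which respond to stress and to tissue dissociation, depended on the scaling, with 5 of 30 risen and 4 fallen on the library total and 9 risen and 1 fallen with TMM. Gadd45b, induced by stress and cytokines, measured 40.6 CPM at 16 h and 145 at 2 d, but 639.9 CPM at 0 h and 709.9 at 6 d. Fos had 2988 and 3096 CPM and Jun 1810 and 1280 CPM, so that neither passed the limit. Irf1, a transcription factor of the interferon list, rose from 32.1 to 69.9 CPM. Of 9 measured interferon stimulated genes 2 rose and 2 fell, and with TMM 3 rose and 0 fell.

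Some ligands of the ERBB receptors were higher at 2 d. The ligands bind EGFR and its relatives on keratinocytes, and Dusp6 and the Spred genes are induced by the pathway and damp it. Of 17 measured genes of the list 6 rose and 1 fell, under both scalings, with a median log2 ratio of 0.15, or 0.35 relative to all genes. Nrg1, the neuregulin ligand of ERBB3 and ERBB4, measured 28.0 CPM at 16 h and 78.5 at 2 d, a ratio of 2.81 (2.66 to 2.97), with 126 CPM at 4 h and 10.1 at 4 d. Epgn, epigen, went from 223 to 380.0 CPM, Areg, amphiregulin, from 122 to 189.7 CPM, and Hbegf from 246 to 381 CPM. Dusp6, a phosphatase of ERK, went from 105 to 172 CPM and Spred2 from 30.1 to 47.1 CPM. T cell barcodes had 44.7 and 71.9 CPM of Dusp6 and 25.98 and 33.8 CPM of Epgn, and Nrg1 was at 0 and 1.101 CPM there. Etv4, a transcription factor downstream of ERK, fell from 17.97 to 6.96 CPM. For its skin cell clusters the paper reports no significant change in mRNA of ERBB receptors or ligands during regeneration. That statement covers clustered cells over the time course, whereas the ratios here compare 2 libraries of cells chosen by keratins, without a test.

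Genes of BMP signalling, which holds bulge cells quiescent and promotes differentiation, rose in 3 of 13 measured cases and fell in 0, with a median log2 ratio of 0.35, or 0.54 relative to all genes. With TMM 5 rose. Bmp2, a ligand, measured 26.3 CPM at 16 h and 71.4 at 2 d, a ratio of 2.71 (2.56 to 2.88), with 128 CPM at 0 h and 16.5 at 4 h. Id1 and Id3 are direct targets of the pathway. Id1 went from 189.7 to 347 CPM, a ratio of 1.83 (1.79 to 1.87), and Id3 from 316 to 495 CPM, while Id1 had 569 CPM at 0 h. Both also rose in T cell barcodes, Id1 from 73.6 to 121.5 CPM, a ratio of 1.65 (1.23 to 2.26), and Id3 from 36.1 to 105 CPM, a ratio of 2.92 (1.94 to 4.59), while Bmp2 had 11.6 and 15.4 CPM there. These levels lay under those of the basal cells, and the part of free basal RNA in them was not tested. In the 542 and 268 cells with a UMI of Cd34, Krt24 or Lgr5, which mark bulge and hair germ cells, Bmp2 had 39.6 CPM at 16 h and 38.2 at 2 d and Id1 297 and 285 CPM. In the 4710 and 3926 cells with Ly6a but none of these markers Bmp2 had 25.96 and 74.0 CPM and Id1 179 and 355 CPM. These subsets were chosen after the data were seen, and the difference between them was not tested. In the first subset S100a4 went from 1801 to 215 CPM, and Ly6a had 170 and 167 CPM. Cd34 was at background at 2 d, as described below, so that subset may not hold the same cells at both times.

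In the TGF-beta and activin list 4 of 16 measured genes rose and 3 fell. Skil, a repressor induced by the pathway, went from 21.2 to 43.2 CPM, while Tgfbi, a matrix protein named for its induction, fell from 388 to 229 CPM. Of 24 measured Wnt pathway genes 1 rose and 2 fell, and with TMM 5 rose and 0 fell. The gene that rose on the library total was Wnt5a, a ligand that acts mostly without beta-catenin, from 20.7 to 42.3 CPM, and the receptors Fzd1, with 13.5 and 8.59 CPM, and Fzd2, with 15.9 and 10.4 CPM, fell. Of 5 measured Hedgehog pathway genes 0 passed the limit, and Ptch1, receptor and target, had 8.78 and 12.4 CPM.

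**Figure D3:**
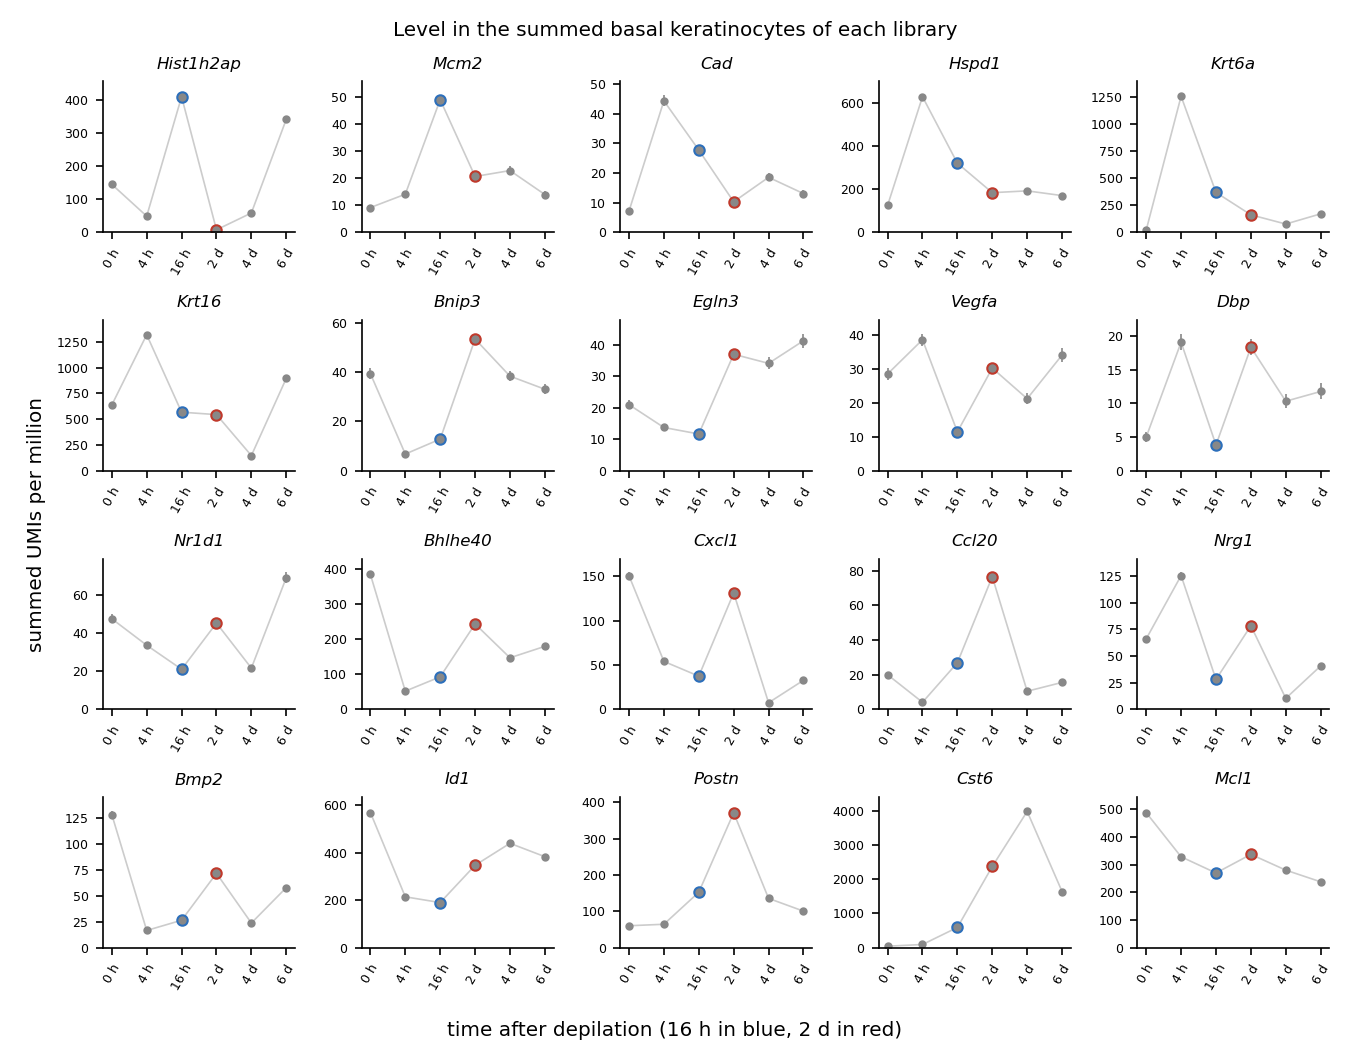
Summed UMIs in CPM (y axis, from 0, with 95% counting intervals) of 20 genes in the basal keratinocytes of each of the 6 libraries (x axis, time after depilation), with 16 h ringed in blue and 2 d in red and a line joining libraries in order of time. Mcm2 and Hist1h2ap peak at 16 h, Krt6a and Hspd1 at 4 h, and Ccl20 and Postn at 2 d.

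Over the 6 libraries, the 2 d library had the highest level for 92 of the 259 genes that rose (35.5%), and the 16 h library the lowest for 53 (20.5%). Of the 1088 that fell, 16 h was the highest library for 371 (34.1%) and 2 d the lowest for 387 (35.6%). The level at 2 d was closer to that at 0 h than the level at 16 h was for 881 of the fallen genes (81.0%) and 177 of the risen genes (68.3%), and for 4925 of all 7381 genes (66.7%). The fallen and risen genes were chosen by the same 16 h level that takes part in these counts. Rpl5, Rps15, Rpl23a and Rpl13a were highest at 0 h and 2 d in basal cells and in T cell barcodes alike. A return towards 0 h therefore cannot be told apart from a likeness of these libraries.

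Among follicle genes, Postn stood out. Postn, periostin, is a matrix protein made by outer bulge cells and fibroblasts. It measured 153 CPM at 16 h and 372 at 2 d, a ratio of 2.44 (2.38 to 2.50), against 60.3 CPM at 0 h, 64.4 at 4 h, 136 at 4 d and 101 at 6 d. After thinning, 18.5% (17.5 to 19.5) of cells held a Postn UMI at 16 h and 41.3% (39.9 to 42.6) at 2 d, and without thinning 38.1% and 70.8% did. T cell barcodes held it in 2.17% and 4.35% after thinning, so the basal share was well above that background at both times. The rise itself was shared with them, since Postn went from 14.4 to 56.2 CPM in T cell barcodes, a ratio of 3.89 (2.06 to 8.28). The part of free basal RNA in that rise was not tested. The summed level of fibroblast and dermal papilla markers was 0.956 CPM at 16 h and 2.66 at 2 d.

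The other bulge markers did not follow Postn. Of 7 measured outer bulge markers 1 rose and 1 fell. Cd34, the surface marker of bulge stem cells, had 16.9 CPM at 16 h and 2.80 at 2 d and lay under the limit for the comparison across genes. Its share of thinned cells went from 3.48% (3.03 to 3.98) to 0.502% (0.325 to 0.740), and from 6.75% to 1.68% without thinning, while 0.414% of T cell barcodes held it at 2 d, so that the 2 d value is at background. Krt24, a bulge keratin, fell from 16.2 to 10.0 CPM, and Sox9, a transcription factor of the follicle, had 102 and 139 CPM. Lgr5, a receptor of bulge and germ cells, was found in 1.749% (1.43 to 2.12) and 1.41% (1.097 to 1.77) of thinned cells, intervals that overlap.

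Upper follicle markers rose in 4 of 9 measured cases and fell in 0. Cst6, cystatin M, a protease inhibitor of the infundibulum and cornified layer, measured 589 CPM at 16 h and 2368 at 2 d, a ratio of 4.02 (3.97 to 4.07), with 42.0 CPM at 0 h, 91.5 at 4 h and 3975 at 4 d. Krt79, a keratin of the upper follicle and sebaceous duct, went from 303 to 621 CPM. In T cell barcodes, however, Cst6 went from 178 to 2947 CPM and Krt79 from 47.6 to 431 CPM, and Krt79 was found after thinning in 7.99% and 13.6% of basal cells against 5.98% and 18.01% of T cell barcodes. The share of basal cells with Krt79 at 2 d was therefore at or under that of cells that should lack it. Klk10, a kallikrein protease, went from 14.7 to 29.2 CPM. Stfa3, a stefin protease inhibitor, had one of the highest ratios, from 63.7 to 442 CPM, with 2.89 and 65.7 CPM in T cell barcodes. Of 7 interfollicular basal markers 0 passed the limit, and Ly6a, the marker used to split the cells, had 406 and 351 CPM.

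Markers of other cell types also rose in the selected cells. The summed level of 10 T cell markers went from 22.5 to 118 CPM, and the 3 over the limit of 10 CPM all rose, namely Cd3g, Cd3e and Trdc, chains of the T cell receptor complex. Cd3e went from 1.61 to 19.3 CPM, Cd3g from 6.98 to 30.7 CPM and Trdc from 3.65 to 23.4 CPM. Ctla2a, a protease inhibitor at 14250 and 13750 CPM in T cell barcodes, went from 13.5 to 102 CPM. The 8 Langerhans cell markers summed to 115 and 191 CPM, with Cd74, the invariant chain, rising from 58.6 to 94.8 CPM. Of the other lists, melanocyte markers summed to 9.19 and 11.4 CPM, sebaceous gland markers to 173 and 114, endothelial markers to 3.50 and 2.11, inner root sheath and hair markers to 11.6 and 22.3, and erythrocyte markers to 0.371 and 1.83 CPM.

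The share of selected cells with a UMI of another cell type's marker went from 6.55% (5.93 to 7.22) to 15.8% (14.8 to 16.9) after thinning, and from 24.8% to 43.8% without it. Free RNA, doublets and T cells resident in the epidermis could not be told apart in these values. Without every cell that held such a UMI, 240 genes rose and 1087 fell. In those cells 25 S phase genes fell, 7 hypoxia genes, 6 clock genes and 6 chemotactic genes rose, and 2 chemotactic genes fell, so these counts were nearly as in all selected cells.

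Ribosomal protein genes stood above the bulk of genes at 2 d, and their summed level was higher at 2 d in T cell barcodes too. Of 79 genes 11 rose and 3 fell, 15 and 2 with TMM, the median log2 ratio was 0.21, or 0.41 relative to all genes, and their summed level went from 248000 to 291400 CPM. In the T cell barcodes it went from 121100 to 187600 CPM, and all 11 that rose also passed the limit there. Others that did not pass it in basal cells passed it there too, such as Rpsa, Rpl7 and Rps20. How many of the 79 passed it in T cell barcodes was not counted, so this overlap has no background share beside it. Rpl5, a protein of the large subunit, measured 1023 CPM at 16 h and 2784 at 2 d, with 458 and 1486 CPM in T cell barcodes. In basal cells Rpl5 was also high at 0 h with 2747 CPM, against 764 CPM at 4 d, 815 at 6 d and 1091 at 4 h, while T cell barcodes had 1121 CPM at 0 h and between 415 and 491 CPM at 4 h, 4 d and 6 d. Rpl23a went from 839 to 2407 CPM and Rps15 from 1193 to 3147 CPM. Ribosomal protein genes have many processed copies in the genome, so reads may be divided between them.

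Several of the genes with the lowest ratios were lower at 2 d in T cell barcodes too. Gm10076, a predicted gene, went from 1490 CPM at 16 h to 172 CPM at 2 d in basal cells, and from 637 to 106 CPM in T cell barcodes. Gm42418, which overlaps ribosomal RNA sequence, went from 7905 to 2756 CPM and from 10670 to 2869 CPM there. Lars2, a mitochondrial tRNA synthetase, went from 229 to 39.9 CPM and from 316 to 44.1 CPM there, and Gstp1, a glutathione transferase, from 45.4 to 4.12 CPM and from 163 to 9.18 CPM there.

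These T cell values were summed over 252 barcodes with 692868 UMIs at 16 h and 879 barcodes with 2724358 UMIs at 2 d. Of 5903 genes with at least 10 UMIs in each T cell sum, 939 had passed the limit in basal cells, of which 376 passed it the same way in T cells and 777 had the same direction. Of the named genes with such counts, 20 of 47 that rose in basal cells and 29 of 69 that fell passed the limit the same way in T cell barcodes. How many of all 5903 genes passed the limit in T cell barcodes was not counted. These overlaps therefore have no background share beside them and do not measure how much change was shared. T cell barcodes also held keratinocyte RNA, since the 12 basal keratinocyte markers summed to 693 CPM at 16 h and 990 at 2 d there. A change shared by both cell types therefore cannot be told apart from a difference between the libraries or from free basal RNA. For example, Bhlhe40, Id1, Id3, Postn, Fdps, Fasn, Rrp9, Nop2, Spink5 and Calml3 passed the limit the same way in both. Bnip3, Egln3 and Mvk passed it in basal cells and not in T cell barcodes. Their T cell ratios were 1.01 (0.631 to 1.67), 1.18 (0.607 to 2.51) and 0.998 (0.643 to 1.6). They rest on 23, 11 and 26 UMIs at 16 h. The intervals do not reach the basal ratios of 4.17, 3.18 and 0.436, but they reach past the 1.5-fold limit. A smaller change in T cell barcodes is therefore not excluded.

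**Figure D4:**
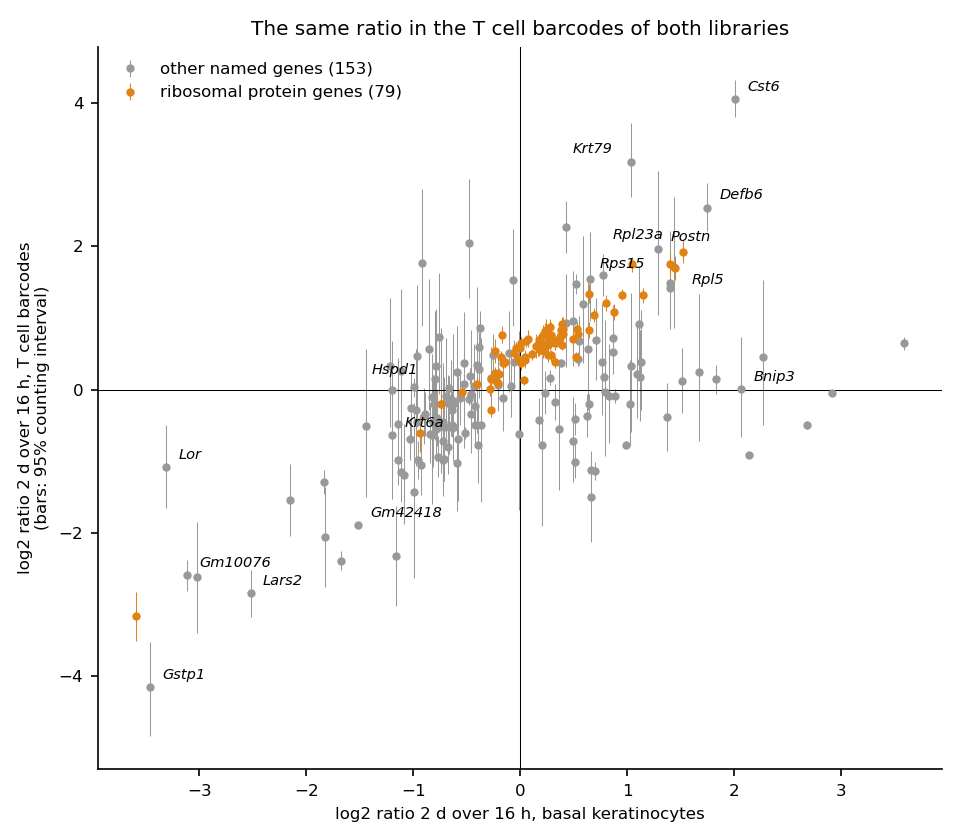
Log2 ratio, 2 d over 16 h, in T cell barcodes (y axis, bars are 95% counting intervals) against that in basal keratinocytes (x axis) for 79 ribosomal protein genes in orange and 153 other named genes in grey, all with at least 10 UMIs in each T cell sum. Rpl5, Rps15 and Rpl23a are high and Gstp1, Lars2 and Gm10076 low on both axes, whereas Bnip3 is high on the x axis and near 0 on the y axis.

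Most named genes past the limit had the same direction within subsets of the basal cells. These genes were chosen by the sum over all selected cells, and the subsets are parts of that sum. Agreement was therefore favoured in advance and is no separate evidence. Of 162 named genes past the 1.5-fold limit, 160 had the same direction in the 2612 and 2266 cells without a cycling marker and 161 in the cycling cells. In cells with Cd34, Krt24 or Lgr5 150 kept their direction and 124 remained past the limit, and in Ly6a cells without those markers 161 of 161 with a value kept it. Bnip3 had a log2 ratio of 1.90 in cells without a cycling marker, 2.27 in cycling cells and 1.92 in Cd34, Krt24 or Lgr5 cells. Postn had 0.38 in the latter cells and 1.51 in Ly6a cells without these markers. Cxcl1 had 0.51 and 2.04 in the same pair of subsets. Since Cd34 was at background at 2 d, the cells with Cd34, Krt24 or Lgr5 may not be the same at both times.

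**Figure D5:**
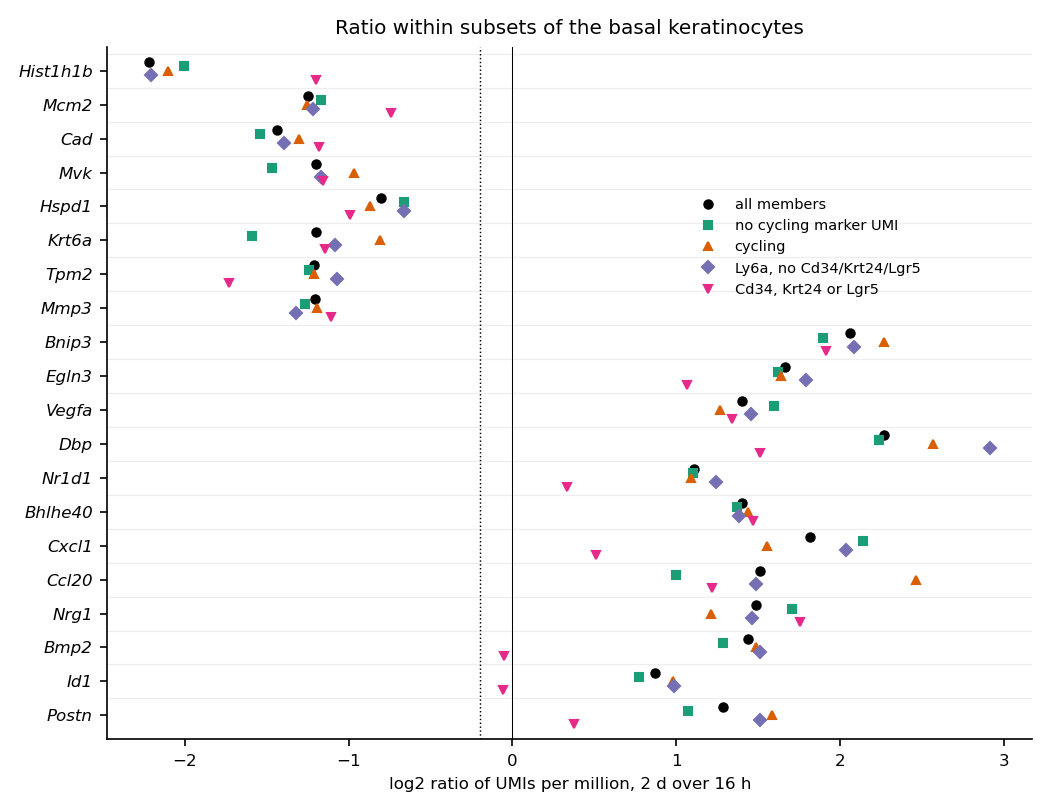
Log2 ratio of CPM, 2 d over 16 h (x axis), of 20 named genes in all selected cells and in 4 subsets of them (symbols as in the key), with the median of all genes as a dotted line. Hist1h1b, Mcm2 and Mvk lie left of 0 and Bnip3, Egln3 and Vegfa right of 0 in every subset shown, whereas Bmp2 and Id1 are near 0 in cells with Cd34, Krt24 or Lgr5.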

How the data were processed

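The 6 libraries, each of skin pooled from 2 mice, were read as the filtered matrices that the authors deposited. Per the labels and the submitters' processing notes these hold UMI counts per gene and barcode, not normalized, made with Cell Ranger 6.1.2 on the mm10 build. The study predicted doublets per sample with scDblFinder and left them out of the hair follicle cells it went on to analyse. Whether its filters preceded deposition is not given in the sources used here. No doublet caller was run, and cells with very many UMIs or genes, or with markers of other cell types, were left out as alternatives. The study describes separate enzyme protocols for telogen and anagen skin and does not say which was used at each time point.

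Barcodes were chosen by the rule given above, and their counts were summed per library. Genes were compared if their mean over both sums was at least 10 CPM, and a change of at least 1.5-fold was called. Ratios carry exact conditional binomial 95% intervals and shares exact Clopper-Pearson 95% intervals. PCR duplicates were removed by UMI, and the intervals cover counting error only. With 1 library per time point no model was fitted, and edgeR served only for TMM factors. The script was tested on simulated data with known ratios.

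The cells and the 58 gene lists (45 of pathways, 13 of cell type markers) were chosen with earlier results of these data known. Named genes were, among those compared, the 15 with the highest and the 15 with the lowest ratio with at least 50 CPM in the higher library, the 10 with the largest rise and the 10 with the largest fall in CPM, up to 4 members per list with the largest absolute log2 ratio, all members of lists of at most 8 genes, the Bcl-2 family with Trp53, and Ly6a, Cd34, Krt24, Postn and Lgr5. The 4 keratins of the rule, mt- genes and symbols that occur more than once (78 of them) were left out of this choice. Trp63, Itga6, Hk2, Ndrg1, Tef, Rora, Arntl, Clock, Tslp, Il33, Il18, Areg, Hbegf, Spred2, Fos, Jun, Krtdap, Krt8 and Dsp were chosen after their values were seen. Some genes that the rule would name are not reported here. A barcode is a T cell barcode if it passed the gene and mt- limits, held at least 3 UMIs of Cd3d, Cd3e, Cd3g, Trdc and Trac, and lay under the Krt5 and Krt14 limit.

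Promoters were taken from the RefSeq table of GRCm38.p6 by gene symbol. Versions were Python 3.11.15, numpy 2.4.6, pandas 2.3.3, scipy 1.17.1, matplotlib 3.10.9, R 4.3.3 and edgeR 4.0.16.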

Additional observations from a re-analysis of the deposited data

Results flagged for a closer look

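The following genes moved in opposite directions in subsets of the basal cells. In each case the difference between the subsets was not tested, since every subset is 1 sum per library, and the values are log2 ratios of 2 d over 16 h.

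Between cells with Ly6a and no bulge marker (2997 and 1090 cells) and cells with a UMI of Cd34, Krt24, Postn or Lgr5 and no Ly6a (546 and 626 cells), the direction was opposite for 6 named genes. Cdkn2c, an inhibitor of cyclin-dependent kinases, had -1.31 in the Ly6a cells and 1.01 in the bulge marked cells. Mmp3 had -1.26 and 3.09, where the bulge marked cells held 2.97 CPM at 16 h and 25.3 CPM at 2 d. In cells with Cd34, Krt24 or Lgr5, Mmp3 had -1.11. Postn, which helps to choose the bulge marked cells, itself rose from 153 to 372 CPM over all selected cells. Krt24 went from 211 to 48.3 CPM within the bulge marked cells, so this subset may not hold the same cells at both times. Id2, an Id family gene, had 0.73 and -0.73. The class II genes H2-Ab1 and H2-Aa and the invariant chain Cd74, all Langerhans cell markers, had 1.49, 1.16 and 1.56 in the Ly6a cells and -1.42, -1.12 and -0.93 in the bulge marked cells.

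Between cells with a UMI of Cd34, Krt24 or Lgr5 and Ly6a cells without these, a pair of subsets chosen after the data were seen, Elovl4, an elongase of very long fatty acids, had -1.87 and 0.93. H2-Ab1 had -0.67 and 0.99, H2-Aa -0.71 and 0.77, and Cd74 -1.10 and 0.99 in the same order. Since Cd34 was at background at 2 d, the first subset may not hold the same cells at both times.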

How the results depend on the processing

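No paired analysis was possible because each time point is 1 library, and for the same reason no library was left out in turn. Of 5239 values of lists and named genes under 20 alternatives, 2623 stayed within their counting interval, 2580 moved beyond it in the same direction and 36 turned their direction, 29 of them in the 2 selections of cells with bulge markers. All 162 named genes past the limit kept their direction under every scaling tried. A scaling moves all log2 ratios by the same amount, which was 0.17 with TMM. With median of ratios the median of all genes moved from -0.20 to 0.001. A move smaller than the limit cannot turn a gene that is past it. The kept directions were therefore fixed in advance and are no separate evidence. Of the 162 genes 135 stayed past the limit with TMM, 131 with median of ratios and 144 without ribosomal protein and mt- genes in the total. The last scaling and the selections by Cd34, Krt24 or Lgr5 were chosen after the data were seen. Beyond causes that follow from an alternative's construction, such as a lower floor or fewer cells, the cause was not tested.

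The number of genes at least 1.5-fold higher (259) became 472 with TMM, 517 with median of ratios, 439 without ribosomal protein and mt- genes in the total, 696 with a floor of 1 CPM, 159 with a floor of 30 CPM, 660 in bulge marked cells and 699 in Cd34, Krt24 or Lgr5 cells. The number lower (1088) became 439, 384, 724, 2117, 450 and 1771 under the first 6 of these. The other 27 counts of genes stayed within 1.5 times.

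In bulge marked cells without Ly6a the direction turned for the Langerhans cell list, with a median log2 ratio of -1.12, and for Serpinb3b -0.16, Vim -0.25, Notch1 0.064, Cdkn2c 1.01, Tead1 -0.29, Plk1 0.59, Mmp3 3.09, Cdk1 0.17, Aurkb 0.42, Calml3 -0.48, Calm5 0.26, Tap1 0.075, H2-Ab1 -1.42, Ndc80 0.12 and Cd74 -0.93. In Cd34, Krt24 or Lgr5 cells it turned for the Langerhans cell list, -0.71, and for Serpinb3b -0.23, Vim -0.38, Bmp2 -0.052, Id1 -0.057, S100a8 -1.69, Cdkn2c 0.25, Klk10 -0.047, Tead1 -0.24, Aurkb 0.37, Krt6b 0.081, H2-Ab1 -0.67 and Cd74 -1.10. In cells without a cycling marker S100a8 had -1.48 and S100a9 -0.87, and in Ly6a cells without a bulge marker -1.10 and -1.04. Krt24 had 0.87 in cycling cells, and Krt6b had 0.16 with at least 200 UMIs of Krt5 and Krt14 per 10000 and 0.40 with fewer than 20 of Krt1 and Krt10. The bulge marked cells were chosen in part by Postn, which itself rose, so they may not be the same cells at both times. The same holds for the Cd34, Krt24 or Lgr5 cells, since Cd34 was at background at 2 d.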

Other observations

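The lists not described above are given here with their counts past the 1.5-fold limit. Counts on the library total are to be read against 3.51% of all genes higher and 14.7% lower. Among 26 measured genes of desmosomes and other junctions 1 fell (3.85%), Pkp3, a plakophilin, from 319 to 187 CPM, with 222 and 116 CPM in T cell barcodes, and Dsp, desmoplakin, had 891 and 1068 CPM. Of 13 matrix proteases and inhibitors 1 rose and 2 fell, the latter being Mmp3 and Ctsl, a cathepsin that went from 93.6 to 49.3 CPM. Of 10 measured S100a genes 2 rose (20%) and 2 fell (20%), and S100a6, a calcium binding protein of proliferating cells, went from 5590 to 3644 CPM. S100a4 went from 283 to 128 CPM, with 4429 and 2232 CPM in T cell barcodes. Of 7 measured Serpinb genes 2 rose (28.6%), Serpinb3b from 12.3 to 31.7 CPM and Serpinb7 from 44.3 to 68.5 CPM. Of 20 measured Nrf2 and antioxidant genes 3 fell (15%, close to the share of all genes) and 0 rose, and with TMM 3 fell and 2 rose. Those that fell were Gsto1, Txn1, thioredoxin, which went from 647 to 375 CPM, and Gstp1, which fell in T cell barcodes too, from 163 to 9.18 CPM.

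Of 10 measured Notch pathway genes 1 rose (10%) and 2 fell (20%). Notch2 rose from 10.7 to 18.6 CPM, while Notch1 fell from 166 to 106 CPM and Lfng, a glycosyltransferase that tunes the receptors, from 14.5 to 6.50 CPM, and from 60.6 to 12.1 CPM in T cell barcodes. With TMM 1 rose and 1 fell. Of 15 measured Yap regulators and targets Birc3, an inhibitor of apoptosis, rose from 11.2 to 22.9 CPM and Tead1, the partner of Yap, from 21.3 to 37.8 CPM (13.3% of the list), and 3 fell (20%), 1 with TMM, among them Ccn2 from 23.7 to 13.7 CPM. Of 8 measured genes of retinoid metabolism Crabp2, a retinoic acid binding protein, rose from 12.0 to 26.1 CPM. Among 3 metallothioneins Mt4, that of stratified epithelia, rose from 37.4 to 63.8 CPM, with 153 and 462 CPM in T cell barcodes, and Mt1 and Mt2 did not pass the limit. Of 4 measured caspases Casp8 fell from 23.3 to 14.4 CPM, and of 13 glucocorticoid responsive genes Ddit4 rose. None of 10 genes of prostaglandin synthesis and receptors and none of 4 Fgf ligands and receptors passed the limit on the library total.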
